A study of Homo sapiens with 6 samples.

Results

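The protein disulfide isomerase genes TXNDC5, P4HB, PDIA3, PDIA4, PDIA5, PDIA6, ERP29, ERP44, TXNDC12 and TMX1 are described here in MDA-MB-231 cells depleted of UBE3D. They were taken by symbol from a table of 20115 genes, in which all 10 have a row. No row of the companion table of 2014 downstream-of-gene (DoG) regions carries the name of a member. The DoG region of BMP6 is described with them, because BMP6 lies on the opposite strand and runs toward TXNDC5. A DoG region is a stretch of transcription that continues past the annotated end of a gene. The genes were selected on measured values, since the fold changes of this same comparison were known when they were picked. Those fold changes are therefore given as descriptions.

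The study asked how gene expression and readthrough change when UBE3D, a ubiquitin ligase linked to the endonuclease that cuts mRNA 3' ends, is depleted. MDA-MB-231 is an established line of triple-negative breast cancer. One group of 3 libraries came from control cells. The other 3 libraries came from cells that carried inducible short hairpins against UBE3D, delivered by lentivirus and switched on with doxycycline. The labels do not describe the hairpins or the handling of the control cells, including any doxycycline given to them, so the hairpin, the drug and the loss of UBE3D cannot be told apart. The labels call each sample pooled and name no separate cultures, so the p-values measure only the spread between these libraries. Values per library were not analysed here. In bulk RNA, a fall in every cell and a loss in a share of the cells cannot be told apart. What can be given for each gene is its mean over the 6 libraries, its log2 fold change (knockdown over control) and the standard error (SE) of that change. The deposited fold changes are shrunken toward 0, so the fold before shrinkage can be larger.

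UBE3D itself was lower in the knockdown, with a log2 fold change of -0.80 (SE 0.37, DESeq2 adjusted p = 0.00632) in the authors' deposited table. A Wald test on the deposited change over its SE, with Benjamini-Hochberg adjustment, gave UBE3D an adjusted p of 0.295, so this call rests on the deposited p-value. This Wald test is stricter by construction, because the deposited fold changes are shrunken. Over all genes, 1595 fell and 929 rose at an adjusted p under 0.05, and the median change was -0.03 on the log2 scale. The mesenchymal markers VIM and CD44 had means of 7835 and 8692 normalized counts, and the hormone receptor genes ESR1 and PGR had means of 22.2 and 50.2, not scaled by gene length. ERBB2 was at 758 on the same scale.

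Protein disulfide isomerases are thioredoxin-like enzymes of the endoplasmic reticulum (ER). They form, break and rearrange disulfide bonds in proteins on their way to the cell surface or out of the cell. Electrons taken from client proteins pass from the isomerases to oxidases such as ERO1A. Most members are soluble and are held in the ER by a retrieval signal that KDEL receptors recognise, while the TMX proteins are anchored in the membrane. Several family genes are known targets of the unfolded protein response, the programme by which cells raise their ER folding capacity.

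TXNDC5 was 3.23-fold lower in the knockdown, TMX1 was 1.37-fold lower, and the other 8 members did not reach a deposited adjusted p under 0.05. TXNDC5 encodes ERp46, an isomerase with thioredoxin-like domains that introduces disulfide bonds quickly. The gene lies at chr6:7881517-7910814 on the minus strand (GRCh38, as for all gene positions here). Its mean was 102 normalized counts, and its log2 fold change was -1.69 (SE 0.25, DESeq2 adjusted p = 4.01e-11) in the authors' deposited table. The 95% interval of the change, from the deposited SE and a normal quantile, ran from -2.18 to -1.20. This is a ratio of knockdown to control between 0.220 and 0.435. It is 1 of 393 genes that carry the authors' own flag, which equals an adjusted p under 0.05 with a change of at least 2-fold, and TMX1 is not. TXNDC5 had the 54th lowest log2 fold change of the 20115 genes. Of the 4081 genes with a mean within a factor of 2 of its own, 21 were lower. The 3 genes of similar mean, outside all gene lists used here, whose log2 fold change lay nearest were DTNA (-1.70, SE 0.57), PTGFRN (-1.70, SE 0.37) and EIF4E3 (-1.71, SE 0.36) in the authors' deposited table. The likeness rests on 1 value per gene, because there is 1 comparison.

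TMX1 encodes a membrane-anchored isomerase that acts preferentially on membrane-bound clients, and lies at chr14:51240162-51257546. Its mean was 1348 normalized counts and its log2 fold change was -0.46 (SE 0.14, DESeq2 adjusted p = 0.00108) in the authors' deposited table. The 95% interval ran from -0.74 to -0.18 and does not overlap that of TXNDC5. The 2 lowered members of 10 compare with 7.93% of all genes lowered. No member passed as raised, against 4.62% of all genes. At an adjusted p under 0.1, TXNDC12 would count as raised. The median log2 fold change over the 10 members was -0.11. Of the 10 values 7 lay below 0, as did 56.8% of all genes.

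**Figure D1:**
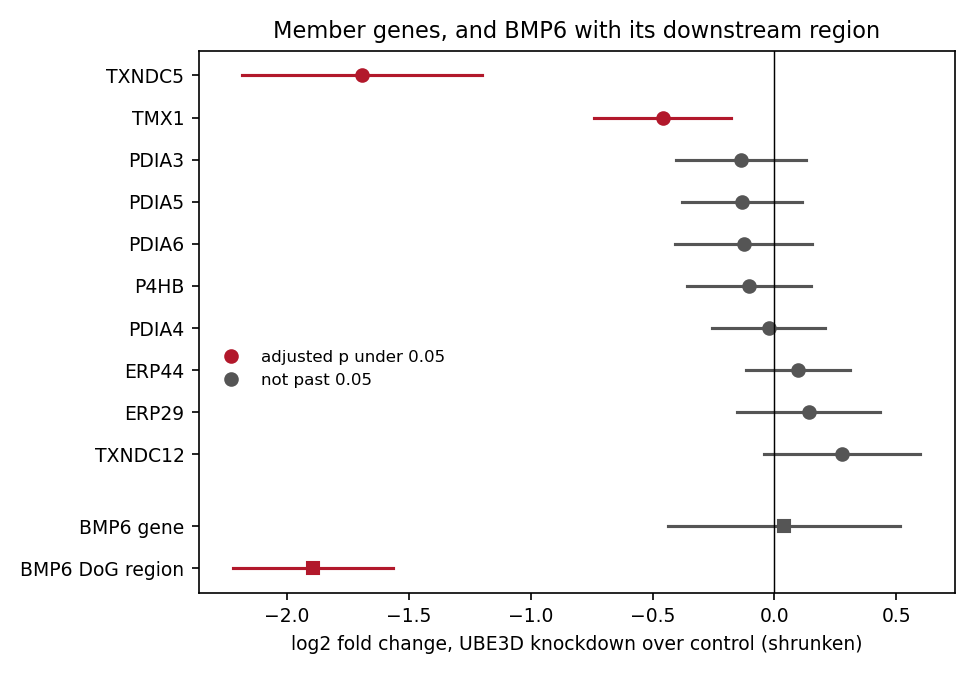
Log2 fold change (shrunken, knockdown over control) of the 10 member genes (circles) and of the BMP6 gene and its DoG region (squares), with bars for 95% intervals from the deposited SE. TXNDC5 at -1.69 and the BMP6 DoG region at -1.89 stand far below 0, TMX1 is at -0.46, and the intervals of the other 8 members cover 0.

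The 4 most abundant members are the classical enzymes of the family. P4HB encodes PDI itself, which is also the beta subunit of collagen prolyl hydroxylase (chr17:81843159-81860694). Its mean was 4648 normalized counts and its log2 fold change -0.10 (SE 0.13, DESeq2 adjusted p = 0.55) in the authors' deposited table. The interval of the ratio to control was 0.781 to 1.11, so a fall as large as that of TXNDC5 lies outside it. PDIA3 encodes ERp57, which works on glycoproteins together with calnexin and calreticulin (chr15:43746392-43773279). It had a mean of 2645 and a log2 fold change of -0.14 (SE 0.14, DESeq2 adjusted p = 0.416) in the authors' deposited table. A processed copy, PDIA3P1, has its own row with a mean of 69.2 and a log2 fold change of 0.11, so some reads could be assigned to either. PDIA6 (chr2:10783391-10837977) encodes P5, which binds the chaperone BiP, and it was at -0.13 (SE 0.14, mean 2406, DESeq2 adjusted p = 0.472). PDIA4 (chr7:149003062-149028641) encodes ERp72 and was at -0.02 (SE 0.12, mean 2205, DESeq2 adjusted p = 0.909), both in the authors' deposited table. The sign of PDIA4 turns to 0.0014 when all fold changes are shifted to a median of 0. None of these 4 passed, and their intervals reach no lower than -0.41.

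PDIA5 (chr3:123067062-123225227) encodes an isomerase reported to act on the stress sensor ATF6. It had a mean of 176 and a log2 fold change of -0.13 (SE 0.13, DESeq2 adjusted p = 0.413) in the authors' deposited table. The 3 values above 0 were those of TXNDC12, ERP29 and ERP44, and the interval of each covers 0. TXNDC12 (chr1:52020131-52056171) encodes ERp18, a single-domain member, and had a log2 fold change of 0.28 (SE 0.16, mean 496, DESeq2 adjusted p = 0.097). ERP29 (chr12:112013316-112023451) encodes an escort protein without a redox active site, and was at 0.14 (SE 0.15, mean 1036, DESeq2 adjusted p = 0.427). ERP44 (chr9:99979179-100099040) encodes a protein that returns immature clients and ERO1 oxidases from the Golgi to the ER, and was at 0.10 (SE 0.11, mean 699.8, DESeq2 adjusted p = 0.527). These 3 values come from the authors' deposited table as well, and a p that misses the threshold does not show that the genes were unchanged. The highest upper bound was that of TXNDC12, at 0.60 on the log2 scale.

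Per kilobase of annotated exon (GENCODE 29), the members spanned from 876 normalized counts for P4HB to 23.2 for TXNDC5. PDIA4 (673), PDIA3 (624) and PDIA6 (587) followed P4HB. ERP29 (336), TMX1 (299.6), ERP44 (144), TXNDC12 (129) and PDIA5 (43.7) came next, so TXNDC5 had the lowest level per kilobase of the 10. The tables used here give an SE of each change and not of each level, so whether neighbours in this order differ beyond the spread over libraries was not tested.

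**Figure D2:**
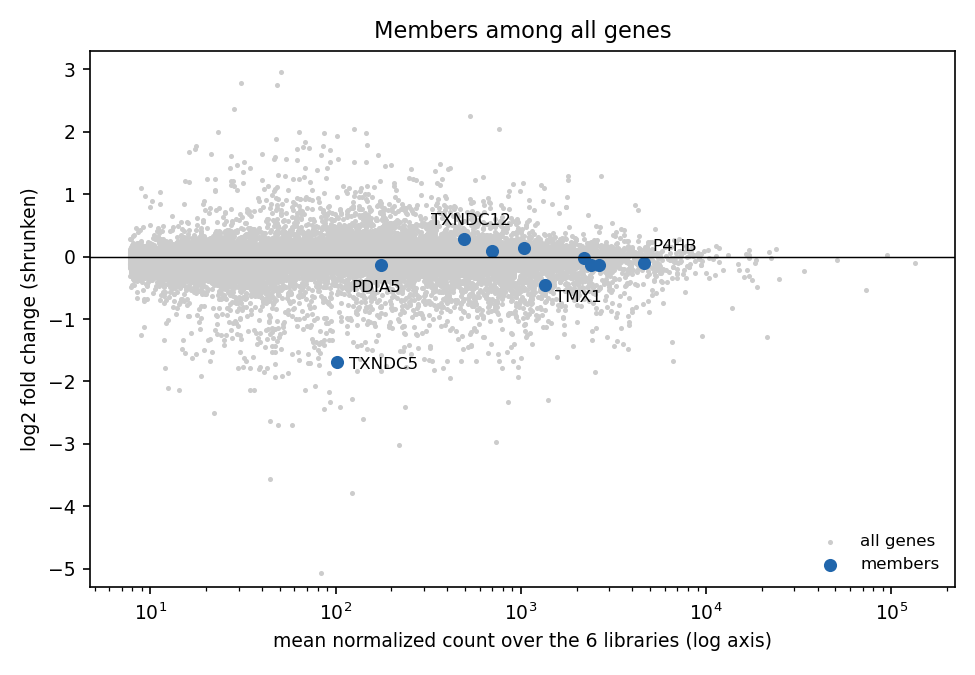
Mean normalized count (log axis) against log2 fold change (shrunken) for all 20115 genes (grey) and the 10 members (blue). TXNDC5 lies near the middle of the abundance range and low on the vertical axis, while TMX1 at -0.46 and the other 8 members, between -0.14 and 0.28, are more abundant.

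TXNDC5 shares much of its exon sequence with another annotated gene. A readthrough gene, BLOC1S5-TXNDC5, joins it to the upstream gene BLOC1S5 on the same strand. Of 4387 exonic bases of TXNDC5, 2658 (60.6%) are also exonic in BLOC1S5-TXNDC5. Neither BLOC1S5 nor the readthrough gene has a row among the 20115 genes. Of coding genes that share at least 50% of their exonic bases with a gene of the same strand, 25.4% (228 of 896) have a row, against 85.1% (14036 of 16497) of those that share none. The median level of those with a row was 17.1 normalized counts per kilobase, against 28.1. How reads in shared exons were counted is not stated, and the part this has in the low level of TXNDC5 was not tested. TXNDC12 shares 48.3% of its exonic bases and PDIA5 14.3%, and the other 7 members share none.

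BMP6, which encodes a bone morphogenetic protein, lies on the plus strand (chr6:7726797-7881422, GRCh38) and ends 94 bases before the end of TXNDC5. Transcription that runs on past BMP6 would enter TXNDC5 from its 3' end. The coordinates of the DoG regions were not used here. The BMP6 gene had a mean of 31.0 normalized counts and a log2 fold change of 0.04 (SE 0.24, DESeq2 adjusted p = 0.871) in the authors' deposited table. The DoG region of BMP6 had a mean of 2502 and a log2 fold change of -1.89 (SE 0.17, DESeq2 adjusted p = 4.67e-29) in the authors' deposited table of DoG regions, a 3.71-fold lower level. It is 1 of 40 regions that carry the authors' flag. Only the LINC01605 region, at -2.46, was lower among the 2014 regions, of which 16.1% were lowered and 12.7% raised. Its change lay 0.20 below that of TXNDC5 and 1.93 below that of its own host gene on the log2 scale. The 95% interval of the region, -2.22 to -1.56, overlaps that of TXNDC5 (-2.18 to -1.20) and lies wholly below that of the BMP6 gene (-0.44 to 0.52). The differences themselves were not tested. The deposited mean of the region was 80.8 times that of BMP6, the 16th largest such ratio among 1798 regions with a host row, whose median was 0.714. At 2502 it was also far above the mean of 102 of TXNDC5, the gene it faces. What the reads of this row come from was not tested. The 2 tables may have been scaled separately, so these comparisons are of the deposited values and not of molecules.

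**Figure D3:**
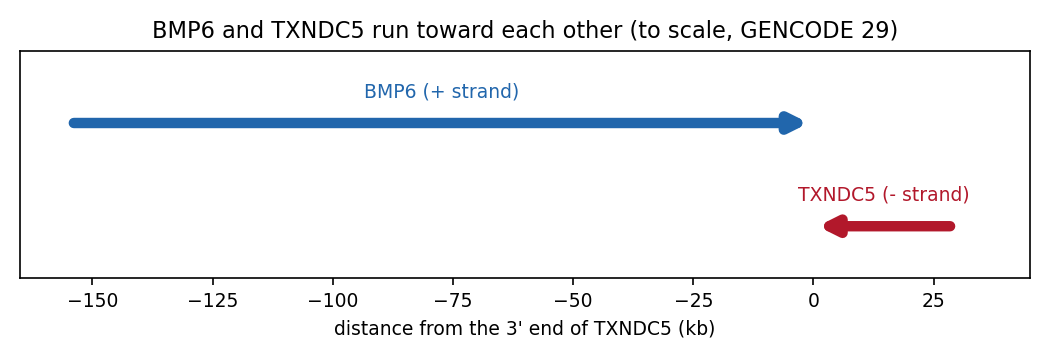
BMP6 (blue, plus strand) and TXNDC5 (red, minus strand) drawn to scale by distance in kb from the 3' end of TXNDC5, with arrows in the direction of transcription. The ends of the 2 genes lie 94 bases apart, so what lies past the end of BMP6 is TXNDC5 on the other strand.

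Other DoG regions that face a gene of the opposite strand were compared in the same way. For 969 DoG regions, at least 1 opposite-strand gene with a row lies beyond the host's end, overlapping it or within 10 kb, and the most abundant one was taken. Across these regions the log2 fold changes of region and facing gene had a Pearson r of 0.74 and a Spearman rho of 0.75, and without BMP6 these were 0.73 and 0.75. The points share the same 6 libraries, and regions are not independent replicates. In some pairs the deposited means were close, as for the FLOT1 region (19157) and TUBB (18618). In others they were far apart, as for the DSTN region (336) and RRBP1 (3841). Means were not compared over all pairs. Where the facing gene was lowered, 74 of 90 regions (82.2%) were lowered and 1 was raised. Without BMP6 these were 73 of 89. Where the facing gene was lowered at least 2-fold, as TXNDC5 was, 2 of 4 regions were lowered. These were BMP6 and YARS (-1.25, facing KIAA1522 at -1.19), while SRFBP1 (0.07, facing LOX at -1.20) and HIST1H4H (-0.14, facing HIST1H2BI at -1.62) did not pass. Where the facing gene was raised, 34 of 68 regions (50%) were raised and 2 lowered. Where it did not pass, 109 of 811 (13.4%) were lowered and 33 raised. The labels describe stranded sequencing, and the strand setting used in counting is not stated. If reads of a gene reached its facing region, the 2 rows could not be told apart, and this was not tested.

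Of the other members, ERP44 is faced by a gene with a DoG row. STX17, which encodes a syntaxin of autophagosomes, ends 8837 bases from the end of ERP44. Its region had a log2 fold change of 0.13 (SE 0.10, DESeq2 adjusted p = 0.283), close to the 0.10 of ERP44 and the 0.10 of the STX17 gene, in the authors' deposited tables. PDIA3 overlaps the end of ELL3 by 680 bases, PDIA6 that of ATP6V1C2 by 1720 bases, and ERP29 ends 3237 bases from NAA25. These 3 facing genes have no DoG row and did not pass the threshold. Elsewhere around TXNDC5, EEF1E1 (0.32, SE 0.19), SLC35B3 (0.02, SE 0.10), SNRNP48 (0.11, SE 0.11), RIOK1 (0.00, SE 0.13) and CAGE1 (-0.05, SE 0.26) did not pass in the authors' deposited table. DSP, the desmoplakin gene upstream of BMP6, fell by 0.90 on the log2 scale (SE 0.16, DESeq2 adjusted p = 6.74e-08). Of the 7 neighbours with a row, BMP6 included, DSP was the 1 lowered gene and none was raised. EEF1E1 passed as raised when genes below a mean of 100 were left out (Benjamini-Hochberg adjusted p = 0.0453).

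**Figure D4:**
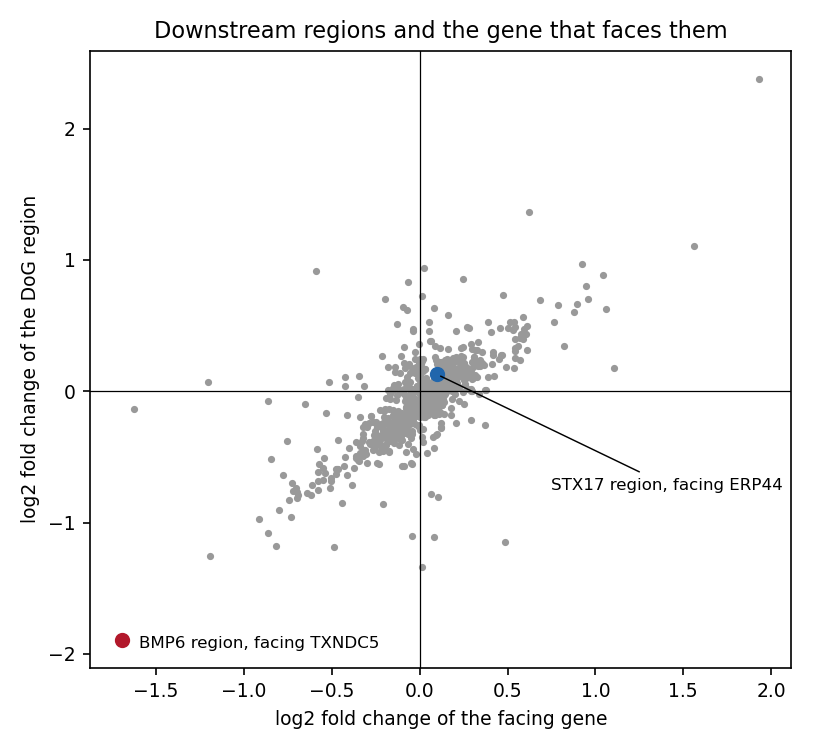
Log2 fold change of each of 969 DoG regions against that of the most abundant gene of the opposite strand facing it (both shrunken, knockdown over control). The points lie along a rising line, with the BMP6 region and TXNDC5 (red) at its lower end and the STX17 region and ERP44 (blue) near the origin.

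The 3' untranslated regions (UTRs) of the members were searched for short words. The 7-base word GATTGAA, picked earlier from these same data because genes that hold it were often lower, occurs once in the TXNDC5 3' UTR of 1627 bases and in none of the other 9. That is 10% of the members, near the 9.48% of all 16167 genes with a 3' UTR of at least 50 bases. Among the 1484 lowered genes 24.8% hold it. CTTATCT, a second word searched, is in no member and in 10.9% of all genes. Because the word was chosen on these fold changes, its presence in TXNDC5 is a description. Whether it belongs to a hairpin is not known. TMX1, the other lowered member, has a 3' UTR of 3027 bases without the word.

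The word also occurs in genes that did not pass, whose sites are not shown. Sites follow for TXNDC5 and 3 lowered genes of the folding lists below, with the word in capitals, 5' to 3' on the transcript strand. They come from GENCODE 29 transcripts (GRCh38), at chr6:7882633-7882661 (minus), chr18:68674127-68674155 (minus), chr3:146070498-146070526 (minus) and chr13:95791825-95791853 (plus).
TXNDC5: agcatggagcaGATTGAAatgcaaaaacc
TMX3: agtatctggggGATTGAAggaagggtcta
PLOD2: cttaaaacacaGATTGAAgaagaaaagaa
DNAJC3: gctgaagtgcaGATTGAAatactttttaa

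Of the 20 lowered genes among members and lists with a 3' UTR, 7 hold the word: TXNDC5, TMX3, PLOD2, DNAJC3, DSP, PRDX3 and PRDX6. Of the 4 raised ones none do, and of the 95 that did not pass 9 do (9.47%). TXNDC16, a family member at 0.16 (SE 0.14), and UGGT1 at -0.07 (SE 0.10) are among those 9, so the word also occurs in genes near 0. Counting every coding transcript instead of the longest 3' UTR adds MBTPS2 and gives 8 of 20. It also gives 10 of the 95 that did not pass (10.5%) and 10.3% of all genes. The word was picked because its holders were often lower, so these counts are descriptions and test nothing.

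Promoter sequences from RefSeq (GRCh38.p14, 250 bases before to 50 after each start) were found for 9 members, in 13 windows. The ER stress element ERSE, CCAAT and CCACG separated by 9 bases and searched on both strands, occurs in 1 of the 13, that of PDIA6, and in 0.0769% of all 35116 windows. The core of the unfolded protein response element, TGACGTG, occurs in 1 of the 13, at the downstream start of TXNDC5, and in 1.97% of all windows. CACGTG, the E-box, was also searched and occurs in 3 of the 13 windows and in 7.26% of all windows. CCAAT alone occurs in 7 of the 13 and in 34.6% of all windows. The ERSE and TGACGTG matches are shown because they are the family's known type of stress control, with the motif letters in capitals. They lie at chr2:10812843-10812881 (minus) and chr6:7910153-7910179 (minus).
PDIA6: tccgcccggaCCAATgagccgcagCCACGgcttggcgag
TXNDC5: cactggcggcTGACGTGgcgctcggcg

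PDIA6 and TXNDC5 were at -0.13 and -1.69 in the data. The matches shown for them are of different elements, and an effect of either was not tested. A match is a run of letters and not a shown binding site, and no match says only that these letters are not in the window.

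The rest of the isomerase family gave 1 more lowered gene. Of 12 further family genes with a row, TMX3 fell and the other 11 did not pass (median -0.16 on the log2 scale). Some of these had low means and wide SE, so a change in them could hardly pass. They were PDILT (mean 9.6, SE 0.43), PDIA2 (10.1, SE 0.33), AGR2 (12.1, SE 0.36), CASQ1 (20.2, SE 0.31) and CASQ2 (21.8, SE 0.46). Among the more abundant, TXNDC15 was at -0.21 (SE 0.13) and DNAJC10 at 0.08 (SE 0.11). TMX3, a membrane-anchored isomerase like TMX1, fell by 0.77 on the log2 scale (SE 0.18, mean 724, DESeq2 adjusted p = 1.82e-05) in the authors' deposited table. TMX4 was at -0.21 (SE 0.10, DESeq2 adjusted p = 0.0902), TXNDC11 at -0.26 (SE 0.13, DESeq2 adjusted p = 0.0597, or 0.0383 when genes below a mean of 100 were left out) and TMX2 at 0.07 (SE 0.12, DESeq2 adjusted p = 0.695). Of the genes TMX1 to TMX4, a group by symbol set out after values were seen, 2 of 4 were thus lowered. Over all 22 family genes with a row, 3 were lowered and 0 raised, against 7.93% and 4.62% of all genes, and the median was -0.13.

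Most of the other folding and redox lists held some lowered genes. Of 12 ER oxidases and peroxidases 3 fell and none rose (median -0.09). VKORC1, the vitamin K epoxide reductase, fell by 0.69 (SE 0.13), the sulfhydryl oxidase gene QSOX2 by 0.45 (SE 0.09) and ERO1A, the main oxidase of P4HB, by 0.33 (SE 0.14, DESeq2 adjusted p = 0.0166), all as log2 values of the authors' deposited table. By the Wald test on change over SE the call of ERO1A was lost (adjusted p = 0.177). Of 17 genes of the calnexin and calreticulin cycle 3 fell and none rose (median -0.09). They were EDEM1 (-0.57, SE 0.14), EDEM2 (-0.56, SE 0.20) and MAN1B1 (-0.27, SE 0.12), which trim mannose on glycoproteins bound for degradation. By the Wald test 1 of these 3 calls, that of EDEM1, held, with adjusted p = 0.0847 for EDEM2 and 0.226 for MAN1B1. CANX (0.11, SE 0.11) and CALR (-0.01, SE 0.11), the lectins that PDIA3 works with, did not pass.

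The list of prolyl and lysyl hydroxylase genes also holds CRTAP and MTTP, and includes partners of P4HB. Of its 12 genes with a row 3 fell and none rose (median -0.16). PLOD2, a lysyl hydroxylase, had a log2 fold change of -1.62 (SE 0.15, DESeq2 adjusted p = 9.98e-25) in the authors' deposited table, close to the change of TXNDC5. P4HA1, an alpha subunit that pairs with P4HB, fell by 0.55 (SE 0.13), and the lysyl hydroxylase gene PLOD1 fell by 0.43 (SE 0.14), a call that the Wald test lost (adjusted p = 0.0518). The shared subunit P4HB (-0.10, SE 0.13) did not pass while its partner P4HA1 did, and the difference between them was not tested.

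ER chaperones were the exception in direction. Of 20 genes 4 rose and 2 fell, with a median of 0.12 against -0.03 for all genes. The raised genes were DNAJB11 (0.56, SE 0.18) and DNAJB9 (0.49, SE 0.17), which encode cochaperones of BiP, HYOU1 (0.43, SE 0.16) and FKBP14 (0.27, SE 0.12), in the authors' deposited table. The lowered genes were DNAJC3 (-0.58, SE 0.13), also a cochaperone of BiP, and FKBP10 (-1.14, SE 0.51), which encodes a collagen chaperone. The Wald test left 1 of the 4 rises, that of DNAJB11, and 1 of the 2 falls, that of DNAJC3, with adjusted p = 0.0629 for DNAJB9 and 0.265 for FKBP10. HSPA5, which encodes BiP, was at -0.06 (SE 0.13) and HSP90B1 at 0.13 (SE 0.15), and neither passed. Of 9 regulators of the unfolded protein response 2 fell. MBTPS2, an intramembrane protease that releases ATF6, had a log2 fold change of -1.68 (SE 0.15, DESeq2 adjusted p = 1.46e-28) and ATF6B, a paralog of ATF6, of -0.44 (SE 0.10), in the authors' deposited table. The other 7 did not pass, and the median was 0.00.

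KDEL receptors, which return most soluble members to the ER, had 0 of 3 past the threshold, with KDELR1 at -0.17 (SE 0.12) and KDELR3 at -0.08 (SE 0.12) in the authors' deposited table. Of 18 thioredoxin and peroxiredoxin genes of the cytosol and mitochondria 3 fell and none rose (median -0.09). PRDX6 fell by 0.68 (SE 0.14), the mitochondrial peroxiredoxin gene PRDX3 by 0.55 (SE 0.15) and TXNIP, an inhibitor of thioredoxin, by 0.49 (SE 0.11). All these counts stand beside the 7.93% lowered and 4.62% raised over all genes and are descriptions of lists drawn up with earlier results known.

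**Figure D5:**
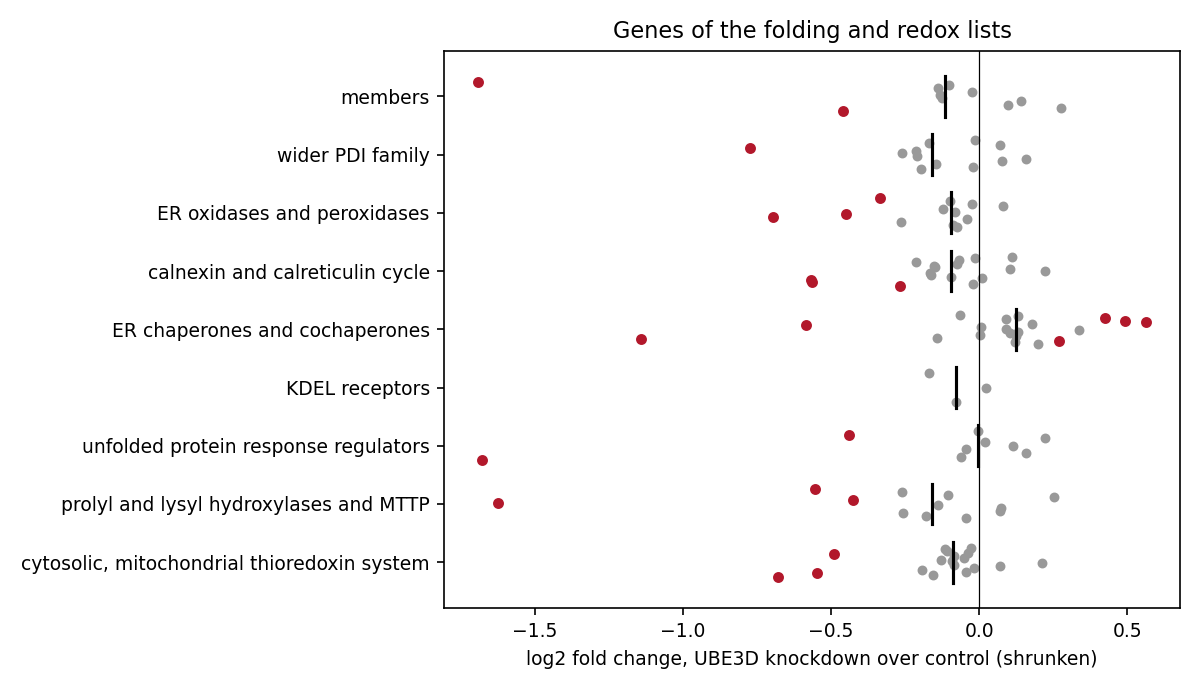
Log2 fold change (shrunken, knockdown over control) of each gene in the members and 8 lists, in red where the deposited adjusted p is under 0.05 and grey otherwise, with a black bar at each list's median. TXNDC5, MBTPS2 and PLOD2 are the lowest points, and the ER chaperones have the one median well above 0.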

How the data were processed

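Per the labels' protocols, libraries were made from total RNA after removal of rRNA, with random priming, and sequenced strand-specifically in 75 bp pairs. Tools listed in the submitters' processing notes are DESeq2, STAR 2.5.2b and cutadapt 1.8.1, with the genome build hg38. How reads were counted, on which annotation and strand, and how DoG regions were called is not given in the sources used here. Per the file headers, each row of the authors' deposited tables holds a mean normalized count (a signal), a log2 fold change with its SE, a p-value before and after adjustment, and a TRUE or FALSE flag. The fold changes are called shrunken because change over SE is smaller than the z value its p-value implies in 20112 genes and all 2014 regions. Recomputing the Benjamini-Hochberg adjustment gave the deposited value in all 20115 and 2014 rows (relative tolerance 1e-06). Depth is unknown.

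Genes were called at a deposited adjusted p under 0.05, and no new test across samples was made. Intervals of 95% use the SE. Members and lists were chosen with earlier results of these data known. The text names all members, their DoG and locus neighbours, up to 4 called genes per list by p-value (2 where none passed), UBE3D, and the 3 genes nearest TXNDC5; TMX2, TMX4, TXNDC11, TXNDC16, UGGT1, CANX, CALR, HSPA5, HSP90B1, HYOU1, FKBP14, PDIA3P1, ELL3, ATP6V1C2, NAA25, STX17, LINC01605, YARS, KIAA1522, SRFBP1, LOX, HIST1H4H and HIST1H2BI were added after values were seen. Positions, exons and 3' UTRs (longest of the basic coding transcripts) are from GENCODE 29, matched by symbol for 18469 genes. The facing-gene, shared-exon and promoter steps were also added then. So were the mentions of FLOT1, TUBB, DSTN, RRBP1, PDILT, PDIA2, AGR2, CASQ1, CASQ2, TXNDC15, DNAJC10 and CRTAP. Python 3.11.15, pandas 2.3.3 and scipy 1.17.1 were used, and the Wald and adjustment step was tested on simulated data.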

Additional observations from a re-analysis of the deposited data

How the results depend on the processing

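TXNDC5, TMX1 and the BMP6 region kept their direction and their side of the threshold under adjusted p thresholds of 0.01 and 0.1, a Wald test on the deposited change over SE, a shift to a median of 0, a minimum mean of 100, and a change rebuilt from the p-value and SE. Under these TXNDC5 ranged from -1.82 to -1.67, TMX1 from -0.57 to -0.43 and the BMP6 region from -1.95 to -1.88. TMX1 came nearest to the threshold, with an adjusted p of 0.042 by the shifted Wald test. Of 60 alternative values of members, 58 kept direction and call. Only the shift could change a direction, since the other settings keep the deposited sign. The rebuilt change keeps the deposited adjusted p as well, so its calls could not change. Most kept directions were thus fixed in advance. PDIA4 changed sign with the shift (0.0014), and TXNDC12 passed at 0.1. Raised members numbered 1 at 0.1 in place of 0. Over the 9 lists, raised genes numbered 4, but 7 at 0.1, 1 by the Wald test and 2 by the shifted Wald test; lowered genes numbered 13 to 22 in place of 18. The Wald test ended 5 lowered calls (ERO1A, EDEM2, MAN1B1, FKBP10 and PLOD1) and 3 raised ones (DNAJB9, HYOU1 and FKBP14). At 0.1 the looser threshold adds calls by construction. The Wald test on change over SE is stricter by construction. The shrunken change over SE lies below the z value of the deposited p in 20112 genes. A call lost in this way does not show that the deposited call was wrong. No paired analysis was possible because values per library were not analysed here, and leaving out single replicates was not run for the same reason. Precision is low for BMP6 and UBE3D, with means of 31.0 and 36.7 normalized counts and SE of 0.24 and 0.37.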
